A study of Mus musculus with 6 samples.

Results

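The 9 genes described here encode proteins through which macrophages stimulate or restrain T cells: Cd40, Cd80, Cd86 and Tnfsf9, which act in costimulation, Cd274 and Pdcd1lg2, the ligands of PD-1, and Cd276, Havcr2 and Lgals9, which belong to other checkpoint pathways. They were chosen by name, with earlier results of these data known, from the 27361 gene names on a mouse expression array. All 9 were found there. Each gene was read from its brightest probe, and all 9 were among the 19043 genes tested, which needed a signal flagged as well above background on 2 or more arrays. Of the 9, 7 had that flag on every array, Tnfsf9 on 5 of 6 and Cd276 on 4 of 6.

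The cells were bone marrow derived macrophages of C57BL/6 mice, grown for 7 days in medium with 10% of an L929 culture supernatant, which supplies the growth factor M-CSF. KO stands for LysMcre FoxO1 Fl/Fl cells, in which Cre, driven from the lysozyme M gene of myeloid cells, removes the floxed Foxo1 gene, and WT stands for FoxO1 Fl/Fl cells without Cre. M0 cells had no further treatment. M1 cells had 24 hours with 100 ng/ml lipopolysaccharide (LPS) and 20 ng/ml interferon-gamma, and M2 cells had 24 hours with 10 ng/ml of the interleukin IL-4 and 10 ng/ml of IL-13. Total RNA of each of the 6 combinations was hybridised to 1 array, so no group has a replicate of its own. Only the KO cells carried Cre, so loss of Foxo1 and presence of Cre cannot be told apart. The labels do not say which animals the 6 RNA samples came from, nor the age of the mice.

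T cells need a signal beside the antigen receptor to become active. CD80 and CD86 give it through CD28 and take it away through CTLA-4. CD40 is the receptor through which activated T cells, by their CD40 ligand, instruct macrophages and dendritic cells, and the product of Tnfsf9 binds the T cell receptor encoded by Tnfrsf9. PD-L1 (Cd274) and PD-L2 (Pdcd1lg2) bind PD-1 and damp T cell responses. In macrophages interferon-gamma is a known inducer of PD-L1, and IL-4 is a known inducer of PD-L2. B7-H3 (Cd276) is a member of the B7 family, and galectin-9 (Lgals9) is a secreted lectin known as a ligand of TIM-3 (Havcr2), itself an inhibitory receptor of T cells and myeloid cells. Cd40 and Havcr2 thus encode receptors rather than ligands.

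Values are processed signals in scanner units or levels, which are log2 of that signal minus the array's 75th percentile. Levels of different genes come from different probes and are not compared with each other. The 75th percentile lay between 532 and 628 units, and 63.1% to 67.9% of spots were well above background. All 10 macrophage markers examined, among them Adgre1, Csf1r and Cd68, had the flag on all 6 arrays, with a summed linear level of 873 to 1165. Foxo1 checked the labels: its signal was 224, 165 and 282 units on the KO arrays in M0, M1 and M2, against 1505, 1144 and 1559 units on the WT arrays. The WT M0 array also carried transcripts typical of liver, with a summed linear level of 28.2 over 8 such genes, against 1.06 on the KO M1 array and 0.105 to 0.195 on the other 4. Differences that use neither array are M2 minus M0 in KO, M1 minus M2 in WT and KO minus WT in M2. In bulk RNA, fewer cells that express a gene and less RNA of it per cell cannot be told apart.

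M1 polarization moved most of the 9 genes, and M2 polarization moved chiefly Pdcd1lg2. In M1 against M0, Cd40, Cd86, Cd274, Pdcd1lg2, Tnfsf9 and Lgals9 rose and Cd276 fell, while Cd80 and Havcr2 did not pass the test. This made 7 of 9 genes at an adjusted p under 0.05 in limma, against 25.6% of all genes tested. By direction it was 6 genes higher, against 11.6% of all genes tested, and 1 gene lower, against 14% of them. Centring arrays on their median in place of the 75th percentile changed the split of all calls from 2206 higher and 2661 lower to 2702 and 1895, and left 6 of the 9 genes higher and 1 lower. The median difference of the 9 genes was 3.47 on the log2 scale, against 0.03 over all genes tested. Since the 9 genes were chosen with earlier results of these data known, these shares and medians only describe them. The test is an additive model of state and genotype over 6 arrays with 2 residual degrees of freedom, so its spread holds array noise together with any difference in response between the genotypes. Both M1 against M0 pairs lay within 1 slide each, the WT pair on slide 1 and the KO pair on slide 2.

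**Figure D1:**
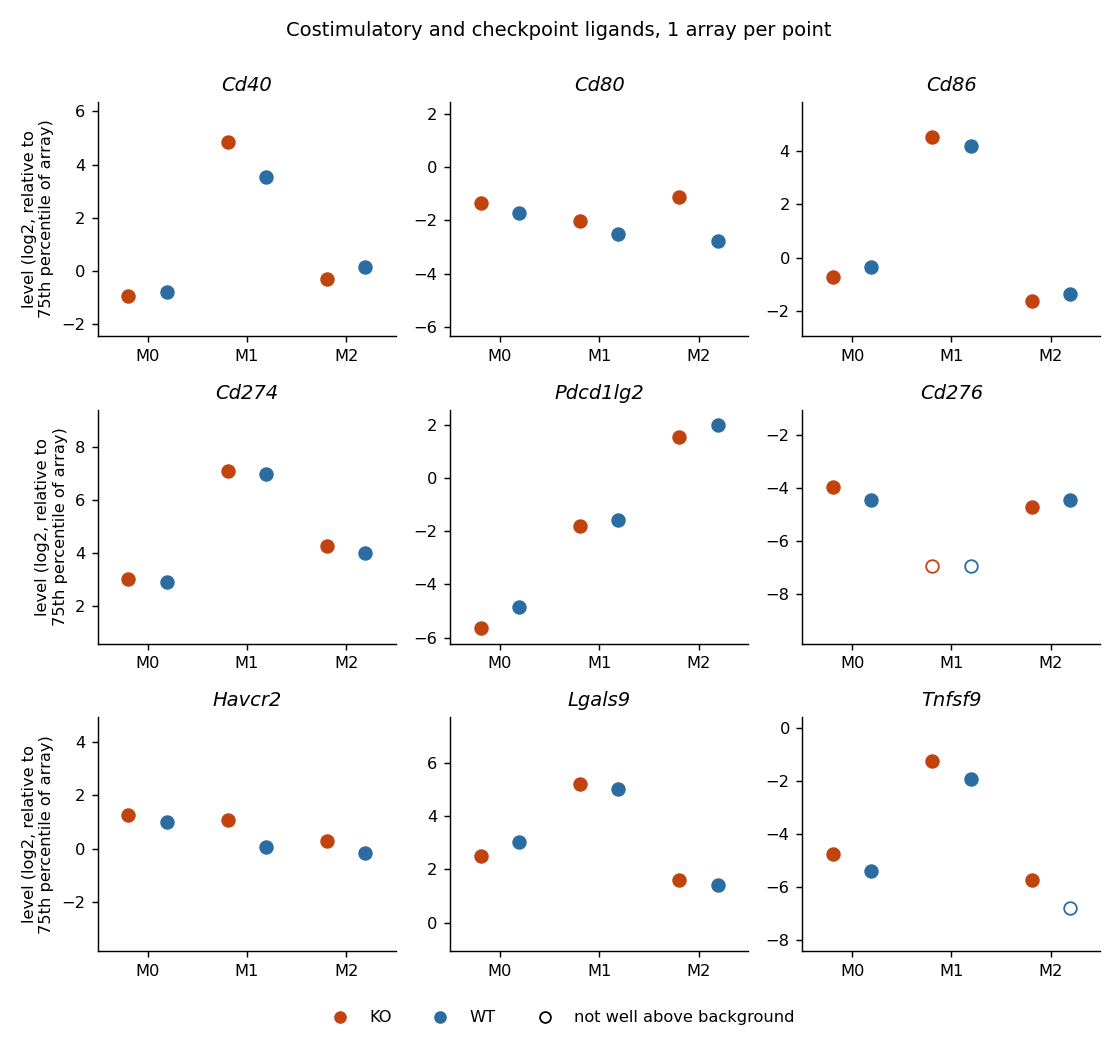
Levels of the 9 genes (log2 signal relative to the array's 75th percentile) on each of the 6 arrays, with KO left of WT in each state and open circles where the probe was not well above background. Every panel spans the same number of log2 units. Cd40, Cd86, Cd274, Lgals9 and Tnfsf9 are highest on the M1 arrays, Pdcd1lg2 is highest on the M2 arrays, and Cd276 is open on both M1 arrays.

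Cd40 had 311, 16923 and 506 units on the KO arrays in M0, M1 and M2, against 309, 6887 and 618 units on the WT arrays. Both M1 arrays were far above the other 4, and M0 and M2 arrays did not overlap either. M1 cells were 33.7-fold above M0 cells, a difference of 5.07 ± 0.51 (SE, 2 arrays a state) with an adjusted p of 0.0114 in limma. M2 against M0 differed by 0.79 ± 0.51, which did not pass (adjusted p of 0.432 in limma).

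Cd86 had 358, 13580 and 202 units on the KO arrays, again in M0, M1 and M2, against 412, 10764 and 213 units on the WT arrays. The M1 arrays stood highest and the M2 arrays lowest in both genotypes. The M1 cells were 30.4-fold above M0 cells (4.93 ± 0.25, SE; adjusted p of 0.00678 in limma). A second Cd86 probe gave a smaller difference of 2.97 with an adjusted p of 0.0124 in limma. The M2 value of -0.95 against M0 did not pass (adjusted p of 0.184 in limma), and the second probe read -1.46.

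Cd80 behaved unlike Cd86, although both proteins bind the same T cell receptors. It had 239, 143 and 289 units on the KO arrays in M0, M1 and M2, against 161, 102 and 81.2 units on the WT arrays. Both M0 arrays lay above both M1 arrays, and the 2 M2 arrays were the highest and the lowest of the 6. M1 against M0 was -0.75 ± 0.38 (SE; adjusted p of 0.228 in limma), and M2 against M0 was -0.42 ± 0.38 (0.552). With the slide as a block the M1 difference of -0.75 had an adjusted p of 0.0484 in limma. A second Cd80 probe gave -0.14 for M1 against M0 (adjusted p of 0.837 in limma). On that probe the KO M1 array, at -1.78, lay above the WT M0 array, at -2.64.

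Tnfsf9, the ligand that T cells read through CD137, was a dim probe with a wide range. It had 22.5, 246 and 11.8 units on the KO arrays in M0, M1 and M2, against 12.6, 153 and 5.03 units on the WT arrays, and the WT M2 value was not well above background. The M1 arrays were the 2 highest. M1 cells were 11.1-fold above M0 cells (3.47 ± 0.18, SE; adjusted p of 0.00678 in limma). Within WT, the M1 array was at least 18.7-fold above the M2 array. Background correction by normexp, which compresses dim probes, gave 1.57 in place of 3.47 for M1 against M0 and still passed.

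The probe sequences of these 4 costimulatory genes and of Lgals9 are shown because they fix which stretch of each transcript the values refer to. Each is the 60-base probe of the array in transcript sense, and mm9 coordinates are those of the files.
Cd40 (chr2:164896301-164896360, plus strand): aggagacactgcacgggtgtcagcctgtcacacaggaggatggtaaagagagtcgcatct
Cd80 (chr16:38474174-38474233, plus strand): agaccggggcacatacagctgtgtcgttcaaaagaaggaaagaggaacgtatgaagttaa
Cd86 (chr16:36615381-36615440, minus strand): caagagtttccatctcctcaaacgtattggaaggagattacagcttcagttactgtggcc
Tnfsf9 (chr17:57246520-57246579, plus strand): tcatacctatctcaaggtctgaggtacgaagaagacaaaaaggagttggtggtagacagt
Lgals9 (chr11:78776964-78777023, minus strand): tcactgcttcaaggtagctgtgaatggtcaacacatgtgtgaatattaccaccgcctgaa

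The 2 PD-1 ligands are neighbours on chromosome 19. Both were higher in M1 than in M0, and they differed in which state was highest. Cd274 had 4944, 79070 and 12278 units on the KO arrays in M0, M1 and M2, against 3999, 73573 and 8773 units on the WT arrays. The order was M1, M2, M0 in both genotypes, and no state overlapped another. M1 cells were 16.6-fold above M0 cells (4.05 ± 0.16, SE; adjusted p of 0.00678 in limma). In M2 the difference from M0 was 1.16 ± 0.16 and did not pass (adjusted p of 0.0929 in limma). It passed with normexp correction at 0.0295 and with an intensity trend in the variance prior at 0.00778.

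Pdcd1lg2 had 12.04, 166 and 1850 units on the KO arrays in M0, M1 and M2, against 18.6, 199 and 2185 units on the WT arrays. Here the order was M2, M1, M0 in both genotypes, again with no overlap. M2 cells were 129-fold above M0 cells (7.01 ± 0.21, SE; adjusted p of 0.0450 in limma). The gene ranked 1 by p among the 19043 genes for that comparison. M1 cells were 11.8-fold above M0 cells (3.56 ± 0.21; adjusted p of 0.00716 in limma) and lower than M2 cells by a log2 difference of -3.45 (adjusted p of 0.00585 in limma). With normexp correction the M1 against M0 difference shrank to 1.55, which still passed (adjusted p of 0.00161 in limma). The KO pair, which lay within 1 slide and used neither array with liver transcripts, gave 7.19 for M2 minus M0, and the WT pair gave 6.82.

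The M2 call of Pdcd1lg2 was close to the threshold. Leaving out 1 array at a time kept the difference between 6.78 and 7.24 and raised the adjusted p in limma to between 0.0540 and 0.626. With the slide as a block it was 7.06 with an adjusted p of 0.168 in limma, and without a filter on dim probes the adjusted p was 0.0827. Normexp correction gave 4.57, with an adjusted p of 0.00197 in limma.

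Only 1 of the 9 genes passed in M2 against M0, where 0.0998% of all genes tested did, 19 in number. At an unadjusted p under 0.05 it was 6 of 9, against 19.1% of all genes tested. Beside Pdcd1lg2 and Cd274 these were Lgals9, Tnfsf9, Havcr2 and Cd86, all with values below 0. The median of the 9 genes was -0.42, against 0.08 over all genes tested. On the KO arrays alone, M2 minus M0 was 1.24 for Cd274, 0.63 for Cd40, 0.21 for Cd80, -0.75 for Cd276, -0.90 for Cd86, -0.91 for Lgals9, -0.95 for Havcr2 and -0.998 for Tnfsf9. This comparison and that of M1 with M0 share the M0 arrays.

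The 250 bases before a RefSeq transcript start of both PD-1 ligand genes (GRCm38.p6) are printed because the 2 genes lie side by side and differed in which state was highest. The tables used here held this region for 6 of the 9 genes and not for Cd40, Cd86 and Tnfsf9. The Cd274 window lies inside the annotated span of that gene, which begins upstream at base 29362107, whereas the Pdcd1lg2 window ends where the span of its gene begins. Capitals mark matches to searched motifs, on either strand. The motifs were TTCNNNGAA and TTCNNNNGAA, the spacings known for STAT factors, GAAANNGAAA of interferon-responsive elements, the NF-kB motif and GTAAACA, a forkhead motif.
Cd274 (chr19:29367188-29367437, plus strand): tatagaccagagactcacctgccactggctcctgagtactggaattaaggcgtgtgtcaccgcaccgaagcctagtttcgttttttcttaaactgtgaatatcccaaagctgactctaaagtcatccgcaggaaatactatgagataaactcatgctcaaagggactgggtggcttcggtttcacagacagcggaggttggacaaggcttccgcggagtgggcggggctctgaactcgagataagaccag
Pdcd1lg2 (chr19:29410669-29410918, plus strand): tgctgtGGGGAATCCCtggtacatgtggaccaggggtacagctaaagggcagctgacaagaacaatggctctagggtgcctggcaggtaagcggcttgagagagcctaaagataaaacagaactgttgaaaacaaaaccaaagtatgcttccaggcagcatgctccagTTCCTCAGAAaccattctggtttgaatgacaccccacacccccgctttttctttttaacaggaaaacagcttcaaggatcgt

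Pdcd1lg2 held TTCCTCAGAA, a match to TTCNNNNGAA, from base -82 to -73 before the start, and GGGGAATCCC, a match to the NF-kB motif, from -244 to -235. Of 27025 promoter windows of the same length, 5.86% held TTCNNNNGAA and 7.01% held the NF-kB motif. The Cd274 window held none of the 5 motifs, which says only that these letters are not in this window. TTCNNNGAA was in 7.18% of windows and GTAAACA in 3.09%, and neither was in the window of any of the 6 genes. Among the others Lgals9 alone held a match, TTTCTTTTTC to GAAANNGAAA from -55 to -46, a motif found in 3.04% of windows.

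Lgals9, the galectin that binds TIM-3, had 3398, 21583 and 1900 units on the KO arrays in M0, M1 and M2, against 4355, 19092 and 1473 units on the WT arrays. The order was M1, M0, M2 in both genotypes, without overlap. M1 cells were 5.10-fold above M0 cells (2.35 ± 0.26, SE; adjusted p of 0.0128 in limma). In M2 the difference from M0 was -1.26 ± 0.26 and did not pass (adjusted p of 0.141 in limma; 0.0268 with an intensity trend).

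Havcr2, its receptor, had the narrowest range of the 9 genes, 1.42 log2 units. It had 1425, 1212 and 774 units on the KO arrays in M0, M1 and M2, against 1074, 611 and 489 units on the WT arrays. States overlapped between M0 and M1 and between M1 and M2, since the KO M1 array was above the WT M0 array and the WT M1 array was below the KO M2 array. Neither M1 against M0 (-0.57 ± 0.25, SE; adjusted p of 0.174 in limma) nor M2 against M0 (-1.07 ± 0.25; 0.161) passed. The M2 difference passed with an intensity trend in the prior (adjusted p of 0.0451 in limma).

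Cd276, which encodes B7-H3, was a dim probe. It had 37.9, 4.79 and 23.7 units on the KO arrays in M0, M1 and M2, against 24.5, 4.87 and 25.5 units on the WT arrays, and both M1 values were not well above background. M0 cells were at least 3.86-fold above M1 cells, and M2 cells at least 2.98-fold above M1 cells. M1 against M0 was fitted at -2.71 ± 0.24 (SE; adjusted p of 0.0101 in limma). With normexp correction it shrank to -0.42, which still passed (0.0338), and M1 against M2 was -0.25 in place of -2.34 and no longer passed (adjusted p of 0.131 in limma). M0 and M2 arrays overlapped (-0.37 ± 0.24, SE; adjusted p of 0.438 in limma).

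**Figure D2:**
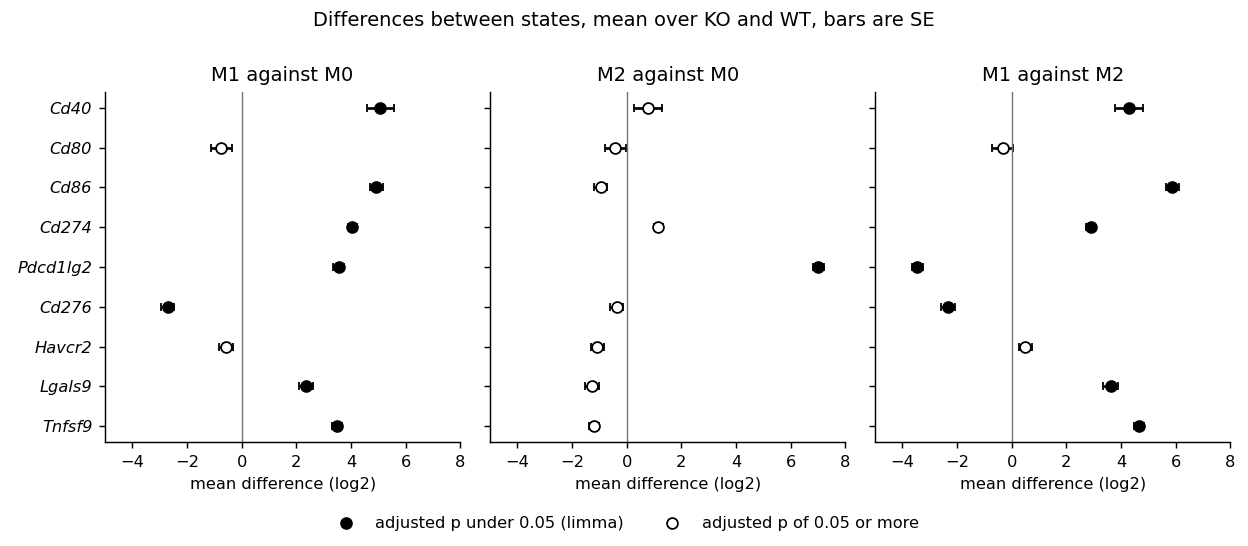
Mean differences between states over both genotypes (log2), with SE from the additive model as bars and filled circles where the adjusted p in limma was under 0.05. In M1 against M0 the 6 genes higher lie between 2.35 and 5.07 and Cd276 at -2.71. In M2 against M0 Pdcd1lg2 alone is filled, at 7.01.

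The direct comparison of the 2 polarized states put 5 genes higher and 2 lower in M1 than in M2, where 11.7% of all genes tested were higher, 13.6% lower and 25.3% either (2224 higher and 2592 lower genes, or 2868 and 1580 with median centring). Cd86 differed most, by 5.88 ± 0.25 (SE; adjusted p of 0.00520 in limma). Tnfsf9 followed with 4.66 ± 0.18, Cd40 with 4.28 ± 0.51, Lgals9 with 3.61 ± 0.26 and Cd274 with 2.89 ± 0.16. Normexp correction gave 1.77 for Tnfsf9, below Cd40 (3.79), Lgals9 (3.41) and Cd274 (2.55), and its M2 mean includes the WT array that was not well above background. Pdcd1lg2 was lower in M1 than in M2, by a difference of -3.45. For Cd276, which has only a bound in M1, M2 cells were at least 2.98-fold above M1 cells, and its call was lost with normexp correction (-0.25). Havcr2 (0.50 ± 0.25) and Cd80 (-0.33 ± 0.38) did not pass. On the WT M1 and M2 arrays, neither of which carried the liver transcripts, M1 minus M2 was 5.57 for Cd86, 3.39 for Cd40, 3.61 for Lgals9, 2.98 for Cd274, 0.23 for Havcr2, 0.24 for Cd80 and -3.55 for Pdcd1lg2, and M2 was at least 3.52-fold above M1 for Cd276. These 2 arrays lay on different slides.

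Dendritic cells also carry these proteins, so their markers are given beside the state differences. Their summed linear level over 12 genes was 16.0, 7.57 and 131 on the KO arrays in M0, M1 and M2, against 10.5, 4.51 and 189 on the WT arrays, with 6 to 9 of 12 well above background. That sum was highest in M2, where Itgax, at 6.84 in KO and 7.24 in WT, made up most of it. Batf3 read 3.78 in KO and 5.14 in WT in M2. The median level of the 12 genes was -3.67 in M1 and -5.09 in M2 in KO, and -4.83 in both states in WT. In M1, 9 of 12 were well above background in KO and 8 in WT, against 6 in M2 in each genotype. Zbtb46, Ccr7, Clec9a and Dpp4 read higher in M1 than in M2 in both genotypes, and Itgax, Batf3 and Ccl17 read higher in M2. Cd209a, Siglech and Ccl22 lay at background on all 6 arrays, and Flt3 read between -4.87 and -3.33. In the sum over 6 B cell markers, 65.8 to 106.9, Blnk made up most, and Pax5 lay at background on all 6 arrays. Their part in the state differences was not tested.

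No difference between KO and WT passed for any of the 9 genes, and 0% of all genes tested passed (lowest adjusted p in limma of 0.304). At an unadjusted p under 0.05 it was 3 of 9, against 11.3% of all genes tested. These were Tnfsf9, at 0.80 ± 0.15 (SE, 3 arrays a genotype; adjusted p of 0.360 in limma), Havcr2, at 0.57 ± 0.20 (0.440), and Pdcd1lg2, at -0.49 ± 0.17 (0.434). Cd80 had the largest mean difference, 0.85 ± 0.31, with an adjusted p of 0.449 in limma. Cd40 (0.23 ± 0.41), Cd274 (0.18 ± 0.13), Cd276 (0.05 ± 0.20), Lgals9 (-0.05 ± 0.21) and Cd86 (-0.10 ± 0.20) had means within 2 SE of 0. With the slide as a block the estimate is that of the M2 pair alone, which for Cd40 was -0.48 and so had the opposite sign. A missed threshold does not show that the genotypes were alike.

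The values within a state are those of 1 array against 1 array and carry no test. In M0 and M1 the KO and WT arrays lay on different slides, and in M2 on the same one. KO minus WT was above 0 in all 3 states for 4 genes, Cd80, Cd274, Havcr2 and Tnfsf9, where 22.1% of all genes tested were. It was below 0 in all 3 states for Pdcd1lg2, where 15.1% of all genes were. Centring arrays on their median instead lowers every KO minus WT value in M1 by 0.32, and Cd274 in M1 then turned to -0.20 and Lgals9 in M1 to -0.13. Cd274 in M1 was also below 0 under quantile normalization, normexp correction and in the authors' deposited table.

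**Figure D3:**
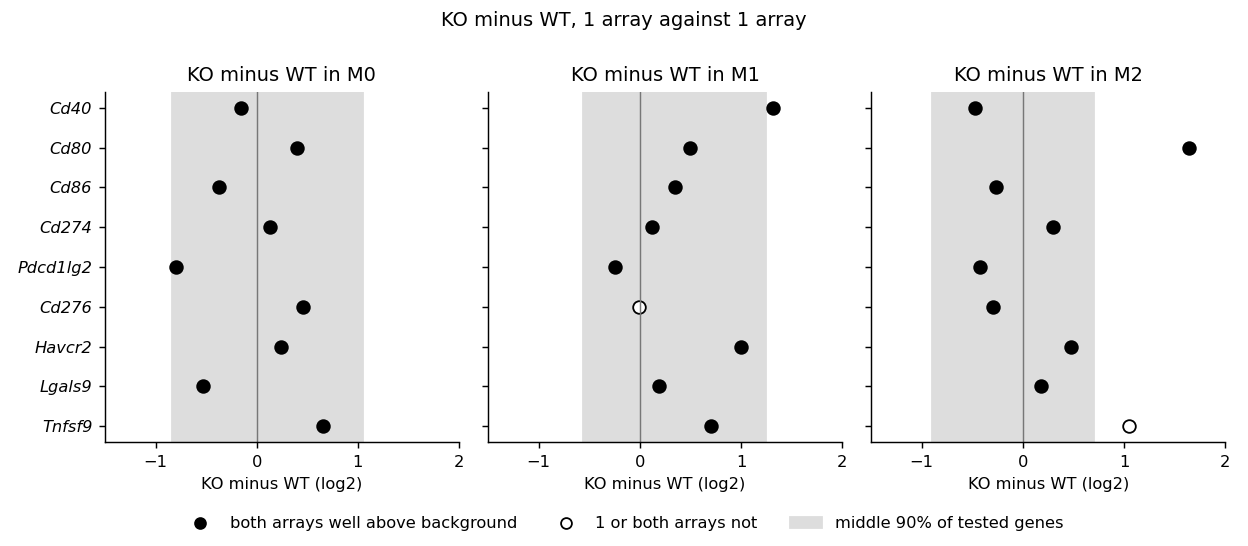
KO minus WT (log2) in each state for the 9 genes, from 1 array of each genotype, over a band that holds the middle 90% of the genes well above background on both arrays. Open circles mark genes not well above background on 1 or both arrays. Outside the band lie Cd40 in M1 (1.31), Cd80 in M2 (1.64) and, as an open circle, Tnfsf9 in M2.

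Cd80 in M2 was the largest of these values. Its signal was 289 units on the KO M2 array, against 81.2 units on the WT M2 array of the same slide, a difference of 1.64 or 3.12-fold. This was larger in size than 98.8% of genes well above background on both arrays, and 2.33% of genes were at least 2-fold higher in KO in M2. Its second probe, at chr16:38495628-38495688 (mm9), gave 2.43 in M2, 0.93 in M1 and 1.07 in M0, and the probe used gave 0.50 in M1 and 0.40 in M0. Both probes were thus higher in KO in each state. M2 minus M0 was 0.21 in KO and -1.04 in WT. Under the alternatives the M2 value lay between 1.15, with normexp correction, and 2.04, as the mean of both probes.

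**Figure D4:**
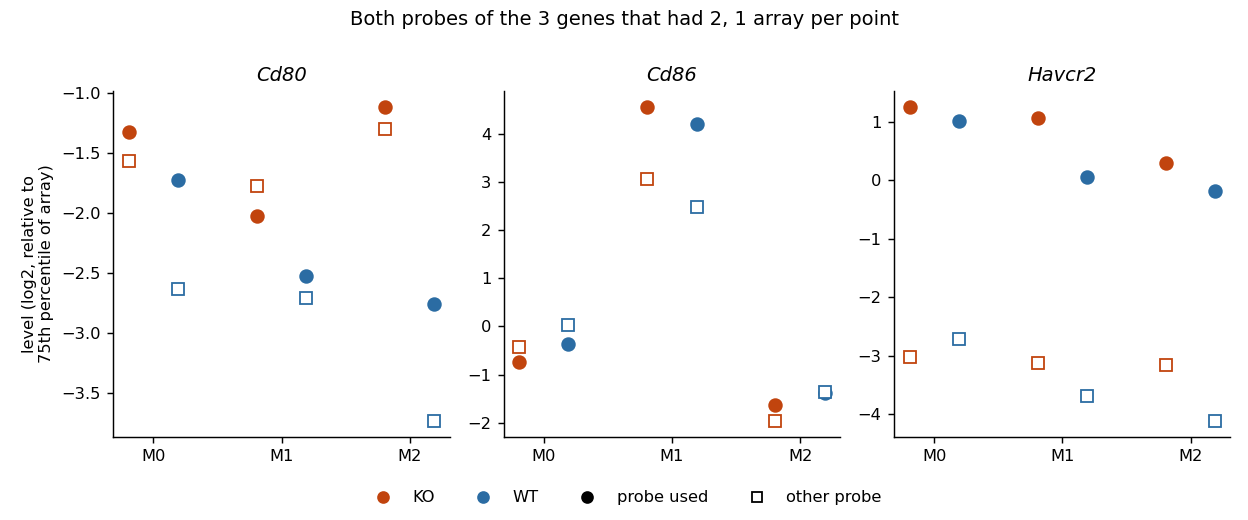
Levels (log2) of both probes of Cd80, Cd86 and Havcr2 on each array, with KO left of WT in each state, circles for the probe used and squares for the other one. For Cd80 the KO points lie above the WT points of the same probe in all 3 states. For Cd86 both probes are highest on the M1 arrays.

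Cd40 in M1 came next. The probe is printed 10 times on the array, and the spots read 16310 to 17542 units on the KO M1 array, against 6698 to 6974 units on the WT M1 array, a difference of 1.31 or 2.48-fold. The spots of the 2 arrays did not overlap, and the spot SD on the log2 scale was 0.032 on the KO array and 0.016 on the WT array. Spots of 1 array share its RNA, so this covers printing and scanning error only. In M0 the spots read 292 to 317 units in KO and 290 to 321 units in WT and overlapped. In M2 they read 498 to 519 units in KO, against 580 to 639 units in WT, a difference of -0.48. M1 minus M0 was 5.81 in KO and 4.34 in WT.

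Several measures of the KO M1 array bear on that value. It carried liver transcripts, and 9.3% of genes were at least 2-fold higher in KO in M1, against 1.02% at least 2-fold lower. The Cd40 difference exceeded in size that of 95.3% of genes. With median centring it was 0.99. The part of slide and array in this difference was not tested. M1 minus M0 was larger in KO than in WT for 7 of the 8 genes well above background on the 4 arrays concerned. The median gap of the 8 was 0.64, against -0.001 over all genes measured on these arrays, and that of Cd40 was 1.47. Cd274 was the 1 gene that went the other way, with M1 minus M0 of 4.04 in KO and 4.06 in WT.

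Havcr2 was 1.00 higher in KO in M1, with 1212 units in KO and 611 units in WT, and differed by 0.24 in M0 and 0.47 in M2. Its second probe gave -0.30, 0.58 and 0.95 in M0, M1 and M2, so the probes disagreed in M0. KO minus WT of Tnfsf9 was 0.66 in M0 and 0.70 in M1. On the M2 slide the KO array was at least 1.35-fold above the WT array. With normexp correction the Tnfsf9 values shrank to 0.07 in M0 and 0.03 in M2. For Pdcd1lg2, which was below 0 throughout, the values were -0.80, -0.25 and -0.43.

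KO minus WT of Cd86 was -0.37, 0.35 and -0.26 in the order M0, M1, M2, and that of Lgals9 -0.53, 0.19 and 0.18. Cd274 gave 0.13, 0.12 and 0.30. Cd276 gave 0.46 in M0 and -0.30 in M2. At the 2-fold mark 0 of 9 genes were higher in KO in M0 (5.76% of genes), 2 of the 8 measured on both arrays in M1 (9.3% of genes) and 1 of 8 in M2 (2.33% of genes). In M0, M1 and M2, 0 of them were 2-fold lower, where 3.6%, 1.02% and 3.89% of genes were.

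Markers of other cells differed between the same arrays. The summed linear level of 7 granulocyte markers was 13.5, 3.70 and 5.19 on the KO arrays in M0, M1 and M2, against 80.2, 3.58 and 25.2 on the WT arrays, with 4 to 7 of 7 well above background on an array. That of 6 stromal markers was 4.53, 2.94 and 3.20, against 13.1, 5.17 and 7.07 on the WT arrays, with 5 or 6 of 6 well above background. That of 7 T and NK cell markers was 0.40, 1.00 and 0.41 on the KO arrays, against 0.22, 0.34 and 0.44 on the WT arrays. On an array 3 to 5 of these 7 were well above background. Cd3e and Cd3g had the flag on all 6 arrays, and Ncr1 lay at background on all 6. Their part in the KO minus WT values was not tested.

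Genes of the same pathways were read from 4 further lists. In M1 against M0, 11.6% of all genes tested were higher and 14% lower, with a median of 0.03. The other costimulatory and checkpoint ligands had 11 genes higher and 3 lower of 24 tested, with a median of 0.90. Tnfsf10, the death ligand TRAIL, differed most, by 5.08 ± 0.58 (SE; adjusted p of 0.0140 in limma), and Tnfsf4, the OX40 ligand, was at least 10.3-fold above M0. On the lower side Vsir, which encodes the checkpoint protein VISTA, differed by -2.81 ± 0.26 (adjusted p of 0.0106 in limma). For the complement receptor gene Vsig4, M0 cells were at least 4.96-fold above M1 cells, and Ceacam1 (-1.02) was the third.

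The lymphocyte receptors of these ligands were mostly dim: 8 of 14 on the array were tested, and 5 were well above background on all 6 arrays. In M1 against M0, 11.6% of all genes tested were higher and 14% lower. Of the 8 receptors 3 were higher, Tnfrsf9 (at least 2.64-fold), Lag3 (2.53 ± 0.19, SE; adjusted p of 0.00859 in limma) and Cd244 (1.32), and 1 was lower. That one, Cd28, encodes the activating receptor for CD80 and CD86. It read 0.51, -4.80 and 0.18 on the KO arrays in M0, M1 and M2, against 1.19, -4.50 and -0.56 on the WT arrays, so M1 stood below both other states in each genotype (-5.50 ± 0.40; adjusted p of 0.00824 in limma). Of the T cell markers, Cd3e read between -2.96 and -1.04 and Cd3g between -5.99 and -5.55 over the 6 arrays, and Lck was higher in M1, at -1.17 in KO and -2.74 in WT, than on the other arrays, where it read at most -5.95. Ctla4, Pdcd1 and Btla had too few arrays well above background to be tested.

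Adaptors of CD40, regulators of these proteins' turnover and transcription factors made up a list of 24 genes, of which 23 were tested. In M1 against M0, 12 were higher and 2 lower, where 11.6% of all genes tested were higher and 14% lower. The median of the list was 0.81, against 0.03 over all genes tested. Traf1, an adaptor of TNF receptors, differed by 4.96 ± 0.25 (SE; adjusted p of 0.00678 in limma), and Batf, an AP-1 family factor, by 3.21 ± 0.21 (0.00765). Irf4, a factor known for IL-4 responses in macrophages, was not well above background in M1. M0 cells were at least 3.80-fold and M2 cells at least 116-fold above M1 cells. Batf3 differed by -1.42 ± 0.26 in M1 against M0 (adjusted p of 0.0317 in limma). In M2 against M0 Irf4 differed by 4.93 and Batf3 by 3.05, with adjusted p of 0.0707 and 0.0624 in limma, and 0 genes of any of the 4 lists passed. In KO against WT likewise 0 genes of the 4 lists passed.

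Cd274 and Pdcd1lg2 sit between Jak2 and Uhrf2 on chromosome 19. Of the 6 tested genes of that stretch, 3 were higher in M1 than in M0 and 0 lower: Jak2, a kinase of the interferon-gamma receptor (2.81 ± 0.15, SE; adjusted p of 0.00705 in limma), Insl6 (2.21 ± 0.17; 0.00879) and Ric1 (1.49 ± 0.16; 0.0128). Over all genes tested, 11.6% were higher and 14% lower. The median of the 6 genes was 1.02, against 0.03 over all genes tested. Jak2 levels were 1.29, 4.02 and 2.85 on the KO arrays in M0, M1 and M2, against 1.10, 3.99 and 2.78 on the WT arrays. This is the order of states that Cd274 has, and Insl6 and Ric1 had it too in both genotypes. Plgrkt, which overlaps the annotated span of Cd274, did not pass (0.56; adjusted p of 0.140 in limma). Jak2 also stands among the regulators.

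**Figure D5:**
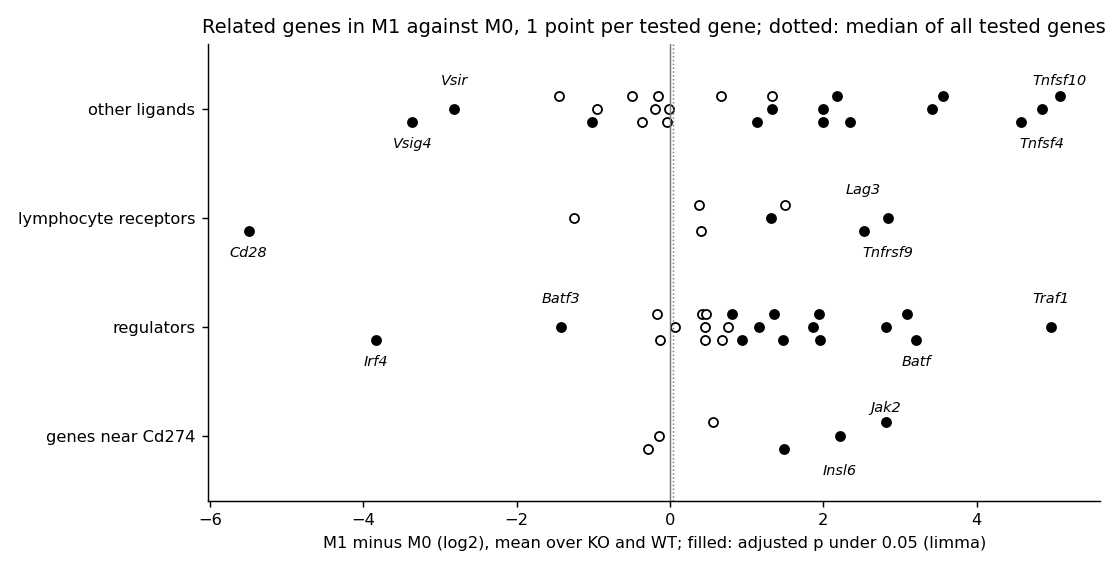
M1 minus M0 (log2, mean over KO and WT) of each tested gene of the 4 lists, filled where the adjusted p in limma was under 0.05, with a dotted line at the median of all genes tested (0.03). Values of Tnfsf4, Vsig4, Tnfrsf9 and Irf4 include arrays not well above background. Cd28 lies farthest to the left, at -5.50, and Tnfsf10 farthest to the right, at 5.08.

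The genes with the most similar profile were sought among 15877 genes whose signal stood well above background on every array, by the root mean square (RMS) difference of centred levels over the 6 arrays. This is a description over 6 arrays that share states and slides. The nearest to Cd40 was Ch25h, cholesterol 25-hydroxylase (0.17), followed by the guanylate-binding protein gene Gbp2 (0.28) and Pla2g16 (0.29). Ch25h levels were 3.38 on KO M1 and 2.25 on WT M1. The search selects for such likeness to Cd40 on these same arrays. Cd274 lay nearest to the phospholipase gene Pla2g4a (0.14), Glrx (0.25) and Rgl1 (0.26), and Lgals9 to the cytokine gene Il15 (0.11), Slfn8 (0.12) and Trim30d (0.12). Nearest to Cd86 were Lysmd2 (0.29), Gpr31b (0.31) and a transcript without a gene symbol (0.32).

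Pdcd1lg2 had the largest RMS differences from its nearest genes, and also the largest RMS spread of its own, 2.87. These genes were Cish, a cytokine-induced signalling inhibitor (0.66), Ddx4 (0.74) and Il4i1, an IL-4-induced amino acid oxidase (1.05). Their Pearson r with Pdcd1lg2 was 0.974, 0.986 and 0.931, against 0.947 for Cd80 and its nearest gene. The RMS differences of Cd80 and Havcr2 from their nearest genes, 0.19 (Pla2g4b) and 0.14 (a transcript without a symbol), stand against small spreads of their own, 0.59 and 0.55.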

How the data were processed

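Total RNA of 6 samples, 1 for each genotype and state as the labels give them, was measured on 1-colour Agilent arrays of design 014868. The authors deposited spot intensity values from Agilent Feature Extraction 10.7.3.1, with background and spatial trend removed within each array and no scaling between arrays, per the file headers. A deposited table of log2 values by the authors, whose columns tracked their own array at an r of at least 0.99886, served as an alternative. Its centring is not stated in the labels or files.

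Controls and outlier spots (79 to 164 of 43379 spots an array were outliers) were dropped, replicate spots were averaged, and each array's 75th percentile was subtracted on the log2 scale. The brightest probe stood for a gene and was tested if flagged well above background on 2 or more arrays. limma 3.58.1 (R 4.3.3) fitted state and genotype to all 6 arrays (2 residual and 1.88 prior degrees of freedom), with Benjamini-Hochberg adjustment over 19043 genes, and was tested on simulated data. Its p-values measure only the spread between these samples, which may be technical. A group with no array above background has only a bound. "At least N-fold" then divides the bright mean by that of each dim array's detection floor, or by the probe's own value where that is higher.

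The 9 genes and all lists were chosen with earlier results of these data known. Named list genes were the 2 highest and 2 lowest past the threshold, and Ceacam1, Cd244 and Ric1 complete counts of 3. Promoter windows are from RefSeq (GRCm38.p6), where 6 of 9 genes matched. Alternatives were other scalings, background corrections, probe choices and filters, the slide as a block, an intensity trend and each array left out.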

Additional observations from a re-analysis of the deposited data

Results flagged for a closer look

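In the 6 cases listed here the values of 2 groups under the same contrast had opposite signs. The list is not complete: Cd80, for example, also gave M1 minus M2 of -0.90 in KO and 0.24 in WT, a difference of -1.14. None of these differences was tested, since each rests on 1 array per group. Cd40 gave KO minus WT of 1.31 in M1 and -0.48 in M2, a difference of 1.79. Cd80 gave M2 minus M0 of 0.21 in KO and -1.04 in WT, a difference of 1.24. Cd86 gave KO minus WT of 0.35 in M1 and -0.37 in M0, a difference of 0.73, which narrowed with median centring, where the M1 value was 0.03. Lgals9 gave KO minus WT of 0.19 in M1 and -0.53 in M0, a difference of 0.72, and with median centring both values were below 0. Cd276 gave KO minus WT of 0.46 in M0 and -0.30 in M2, a difference of 0.76, and thereby M2 minus M0 of -0.75 in KO and 0.01 in WT, a difference of -0.76. Its M0 value was 0.06 with normexp correction.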

How the results depend on the processing

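The additive model compares states within each genotype. No further pairing was possible, because each group has 1 array and the labels carry no replicate numbers. The 15 differences between states that passed kept their sign in 223 of 223 alternatives and stayed past the threshold in 170. Many of these alternatives could not change the sign, because they altered only the variance, the set of genes or arrays outside the comparison. The Cd40 difference in M1 against M0 stayed 5.07 without a filter, with an intensity trend and without either M2 array. In M1 against M0, 5 to 8 genes passed under the settings that kept all arrays, 5 of them where the filter asked for all 6 arrays, which leaves out Cd276 and Tnfsf9. Without 1 array the count was 0 to 8. It was 0 without either M0 array or either M1 array, where 0 genes of all tested passed, and 8 without either M2 array. In M1 against M2 it was 0 to 7 without 1 array, and 0 without either M1 array. In M2 against M0, where 1 gene passed, 2 did with normexp correction (Cd274 added), 4 with an intensity trend, 0 without a filter on dim probes and 0 with the slide as a block, and leaving out any 1 array gave 0. Over all genes that comparison had 19 calls, against 0 with the slide as a block, 498 with median centring, 856 with normexp correction and 1074 with an intensity trend. Genes of the 4 lists passed in M2 against M0 under some settings: up to 3 other ligands, 1 receptor, 6 regulators and 3 genes near Cd274. Over all genes M1 against M2 had 4816 calls, against 2188 with the slide as a block, where 11 in place of 17 regulators and 0 in place of 3 genes near Cd274 passed. In KO against WT 0 of the 9 genes passed under every setting tried, while an intensity trend called 35 genes over the whole array. Median centring moved all genes by 0.23 in M1 against M0, 0.32 in M1 against M2 and -0.10 in M2 against M0. Dim probes (Cd276, Tnfsf9, Pdcd1lg2 in M0) limit the size of their differences.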
